A study of Caenorhabditis elegans with 15 samples.

Results

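The libraries of both strains that overexpress ACP7 from the intestine, 10 in all, were pooled and compared with the 5 wild-type libraries, to describe what carrying either construct had in common. These are all 15 libraries of the series, and the members were taken from the genotype labels alone. The series addresses how ACP7, a secreted phosphatase made in the gut, alters the Caenorhabditis elegans transcriptome relative to wild type and to a phosphatase-inactive form. Each library was poly(A) RNA of about 1000 whole worms.

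The ACP7 OE group (5 libraries, strain ABR275) carried F21A3.11, the gene of ACP7, behind the ges-1 promoter, followed by an SL2 trans-spliced WormScarlet reporter and the unc-54 3' untranslated region. The ACP7-7A OE group (5 libraries, strain ABR484) carried the same construct with F21A3.11-7A, a catalytically dead form. Wild type was N2 (5 libraries), which carries no construct. The labels give neither the age nor the stage of the worms, and they do not say whether libraries of a group came from separate cultures, so p-values measure only the spread between libraries. Each construct was represented by a single strain, so the effect of a construct and that of its strain cannot be told apart. F21A3.11 and WormScarlet are left out of all gene results.

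The ges-1 gene encodes a gut esterase, and its promoter is widely used to drive transgenes in the worm intestine, a single tube of large polyploid cells that digests food, stores fat and makes yolk. Acid phosphatases of this kind remove phosphate groups in acidic compartments or after secretion. In C. elegans, SL2 trans-splicing separates the genes of an operon into individual messenger RNAs, so a reporter placed this way is made from the same transcript as the gene before it. What the active and the inactive construct share includes the promoter, the reporter, the untranslated region and the production of a transgene messenger RNA in the gut, but not the enzyme activity.

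Library totals ran from 39180648 to 58077047 counts in ACP7 OE, from 41696722 to 50869260 in ACP7-7A OE and from 39050495 to 49452773 in wild type. The genotype labels were checked on the construct itself: F21A3.11 had 576 to 645 CPM (counts scaled to a common library size and corrected for composition) in ACP7 OE libraries and 1072 to 1549 CPM in ACP7-7A OE, against 12.96 to 16.64 CPM in wild type, and WormScarlet had no count in any wild-type library. Summed intestine, muscle, pharynx, neuron, hypodermis, germline and oocyte markers were above 0 in every library. No matched marker of these cell types was at 0 over all libraries together, and the intestine marker opt-2 was not matched. ACP7-7A OE libraries 1 and 2 stood apart from libraries 3 to 5 of their group on the first principal component, at 40.9 and 44.0 against 1.89 to 9.32. That component held 33.5% of the variance and set ACP7 OE libraries, at -46.8 to -31.5, apart from all others. All wild-type libraries lay on it between ACP7-7A OE libraries 3 to 5 and libraries 1 and 2. The pooled construct groups thus did not lie together on it, which limits what the pooled comparison can say about both. Wild-type library 5 stood apart from the other wild-type libraries in many of the genes described here, and the counts over gene lists, and values of named genes in which it lay with the construct libraries, are also given without it where calls or sizes moved. Leaving out a library that lay with the construct libraries by itself favours larger differences, so these adjusted p-values are no further support.

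The pooled comparison treated the 10 construct libraries as a single group and set it against the 5 wild-type libraries. Of 15723 genes tested, 65 (0.413%) passed an adjusted p under 0.05 in edgeR's quasi-likelihood test, with 14 higher (0.0890%) and 51 lower (0.324%) in the construct libraries than in wild type. The changes were small: 54 of the 65 had a log2 fold change under 1 in size, and 24 had one under 0.5. The count depended on the model. With a mean for each of the 3 groups, the average of both constructs against wild type gave 318 genes (102 higher, 216 lower). The DESeq2 Wald test gave 347 (154 higher, 193 lower). A fit that also included the replicate number gave 4 (3 higher, 1 lower). Of the 65, 3 genes rose and 8 fell with a log2 fold change of at least 1 in size. The genes that rose furthest past the threshold were the F-box pseudogene fbxa-195, the neurite-shaping gene sax-2 and the arrestin-domain gene arrd-13. Among the genes that fell were the neighbouring pair C38D9.2 and C38D9.13, R08F11.4, the arrestin-domain gene arrd-24, the acid sphingomyelinase gene asm-3 and unc-75, a splicing factor gene. For comparison, 2513 genes (16%) had an unadjusted p under 0.05, with 1223 higher (7.78%) and 1290 lower (8.20%).

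Over all genes tested, 28 genes (0.178%) were higher in each of the 10 construct libraries than in every wild-type library, and 51 (0.324%) were lower in each of them. Among the called genes, 9 of the 14 that rose and 17 of the 51 that fell had no overlap of this kind. With upper-quartile scaling the split of the calls was 17 higher and 36 lower, so that 32.1% of calls were higher, against 21.5% with the scaling used throughout.

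**Figure D1:**
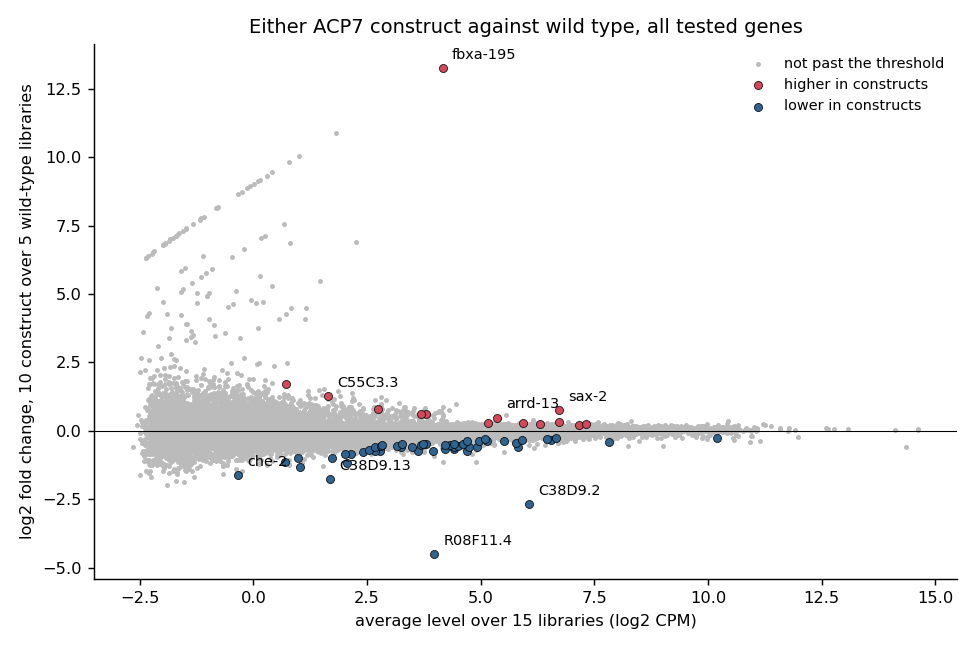
Log2 fold change of the 10 construct libraries over the 5 wild-type libraries (vertical axis) against the average log2 CPM (horizontal axis), each point a tested gene, with the 14 higher genes past an adjusted p of 0.05 in red and the 51 lower ones in blue. The fitted value of fbxa-195, with no count in wild type, depends on the fit and lies above all others; grey points high on the left are low genes that did not pass.

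The number of calls depended on single libraries, those of wild type above all. Without wild-type library 1, 2, 3 or 4 it was 7, 16, 11 or 9, and without wild-type library 5 it was 468 (2.93% of 15998 genes tested), with 111 higher (0.694%) and 357 lower (2.23%). It was 42 without ACP7 OE library 2, 28 without library 3 and 123 without library 5 of that group, and 43 without ACP7-7A OE library 1. Without all 3 of wild-type library 5 and the 2 ACP7-7A OE libraries that stood apart, it was 1003, with 510 higher and 493 lower. Calls on fbxa-195, sax-2, arrd-13, C38D9.13, R08F11.4 and txt-4 were kept without any single library. The other 59 were each lost without at least 1 wild-type library, with adjusted p-values up to 0.186.

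**Figure D2:**
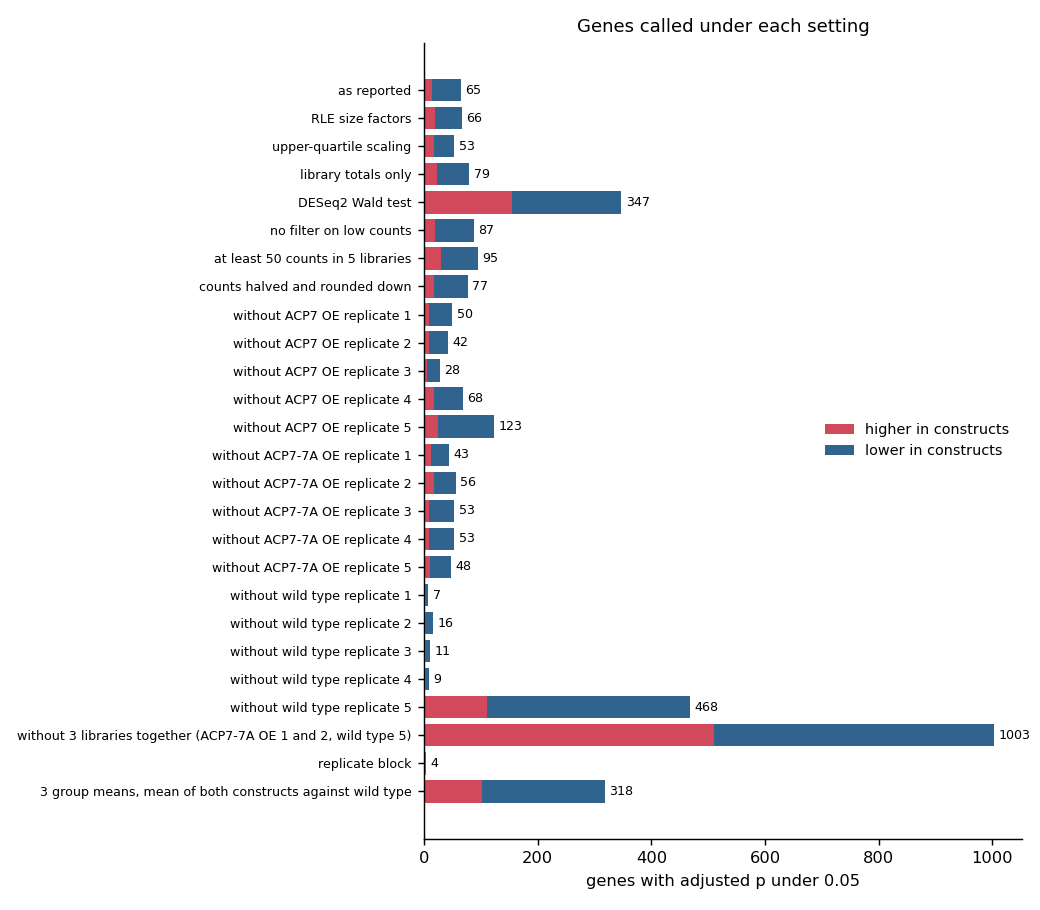
Number of genes past an adjusted p of 0.05 (horizontal axis, bars from 0) under each setting, split into higher (red) and lower (blue) in the construct libraries, with the total beside each bar. The reported 65 became 468 without wild-type library 5 and 7 without wild-type library 1.

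The strongest difference by p-value was fbxa-195, a pseudogene of the F-box family, whose members act as adaptors that bring proteins to ubiquitin ligases. It had 20.5, 23.05, 20.3, 23.7 and 26.2 CPM in ACP7 OE libraries and 27.98, 27.5, 33.2, 31.3 and 33.8 CPM in ACP7-7A OE, against 0 in each of the 5 wild-type libraries. All construct libraries were above wild type, and all ACP7-7A OE libraries were above all ACP7 OE libraries. Since mates appear to have been counted separately, its fold change was bounded on halved counts, a bound added after seeing the data: with 6186 read pairs in the construct libraries and none in wild type, it was at least 953-fold higher (computed against 3 pairs over the wild-type group; adjusted p = 1.2e-13 in edgeR on the counts as deposited). The annotation places fbxa-195 on chromosome V at 1434339 to 1435804 on the minus strand (WBcel235), 2201 bases from ges-1, which lies at 1427653 to 1432137 on the same strand. It is thus on the side of the ges-1 promoter that drives both constructs. ACP7 OE had less of it than ACP7-7A OE (log2 fold change -0.43 between the constructs, adjusted p = 0.0093), and F21A3.11 and WormScarlet were also lower in ACP7 OE, with 798 to 964 CPM of WormScarlet there and 1580 to 2359 CPM in ACP7-7A OE. Whether reads of the construct were counted as fbxa-195 was not tested.

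The genes from which the other construct elements were taken did not pass the test in the pooled comparison. ges-1 averaged 44.2 ± 5.30 CPM in ACP7 OE libraries and 34.6 ± 0.86 CPM in ACP7-7A OE, against 43.8 ± 2.98 CPM in wild type (SD, n = 5 each), with a pooled log2 fold change of -0.15 (SE 0.09, adjusted p = 0.42). unc-54, the major muscle myosin heavy chain, averaged 1056 ± 223 CPM in ACP7 OE libraries and 1942 ± 576 CPM in ACP7-7A OE, against 1176 ± 130 CPM in wild type, with a pooled log2 fold change of 0.35 (SE 0.27, adjusted p = 0.53).

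sax-2 encodes a Furry-family protein that shapes neurites. Its level was 148, 128, 122, 140 and 128 CPM in ACP7 OE libraries and 117, 116, 109, 108 and 102 CPM in ACP7-7A OE, against 69.9, 71.5, 67.6, 78.3 and 76.1 CPM in wild type. All 10 construct libraries were above all wild-type libraries, with ACP7 OE the higher of the 2 construct groups. It rose 1.68-fold (log2 fold change 0.74, SE 0.08, adjusted p = 1.2e-05).

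arrd-13, an arrestin-domain gene, had 39.2, 44.8 and 53.96 CPM as the lowest, median and highest of the construct libraries, against 29.1, 35.1, 33.7, 29.4 and 34.5 CPM in wild type. The groups did not overlap. Its log2 fold change was 0.49 (SE 0.08, adjusted p = 0.0055). Its call held without each library in turn, with adjusted p-values up to 0.0405.

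C55C3.3 and F22E5.1 were low genes that rose. C55C3.3 had 2.44, 3.55 and 6.13 CPM (lowest, median and highest) in the construct libraries, against 0.685, 2.12, 2.14, 1.41 and 1.58 CPM in wild type (log2 fold change 1.27, SE 0.25, adjusted p = 0.025). F22E5.1 had 5.69, 6.90 and 10.4 CPM in the construct libraries, against 3.75, 4.48, 4.94, 3.73 and 5.42 CPM in wild type (0.78, SE 0.16, adjusted p = 0.028). Neither gene overlapped between construct and wild-type libraries. Each of these calls was lost without each of wild-type libraries 1 to 4 in turn (adjusted p up to 0.121 for C55C3.3 and 0.138 for F22E5.1).

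wago-4, an Argonaute protein of inherited RNA interference in the germline, was 154, 165 and 188 CPM (lowest, median and highest) in the construct libraries, against 138, 139, 142, 143 and 150 CPM in wild type. The groups were adjacent without overlap, and the log2 fold change was 0.24 (SE 0.05, adjusted p = 0.038). fbxc-50, an F-box gene, was 34.8, 37.6 and 42.3 CPM in the construct libraries, against 30.9, 30.6, 29.5, 32.02 and 33.997 CPM in wild type (0.28, SE 0.06, adjusted p = 0.044). Y53F4B.9 (0.33, SE 0.06, adjusted p = 0.025) and F47D12.9 (0.23, SE 0.05, adjusted p = 0.047) also rose without overlap. Without each of wild-type libraries 1 to 4 in turn, the calls on wago-4, fbxc-50, Y53F4B.9 and F47D12.9 were lost. The calls on wago-4, fbxc-50 and F47D12.9 were also lost without several construct libraries.

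The remaining 5 genes that rose overlapped wild type, and are named after their values were seen. They were Y68A4A.13 (log2 fold change 1.71), C18D4.6 (0.60), C34H4.1 (0.60), osgn-1 (0.30) and F34D10.4 (0.23). osgn-1 ran from 57.8 to 73.5 CPM in the construct libraries, against 49.5 to 52.4 CPM in wild-type libraries 1 to 4 and 60.5 CPM in wild-type library 5, which thus lay among the construct libraries. Each of the 5 calls was lost without at least 3 wild-type libraries, with adjusted p-values up to 0.177 (Y68A4A.13).

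**Figure D3:**
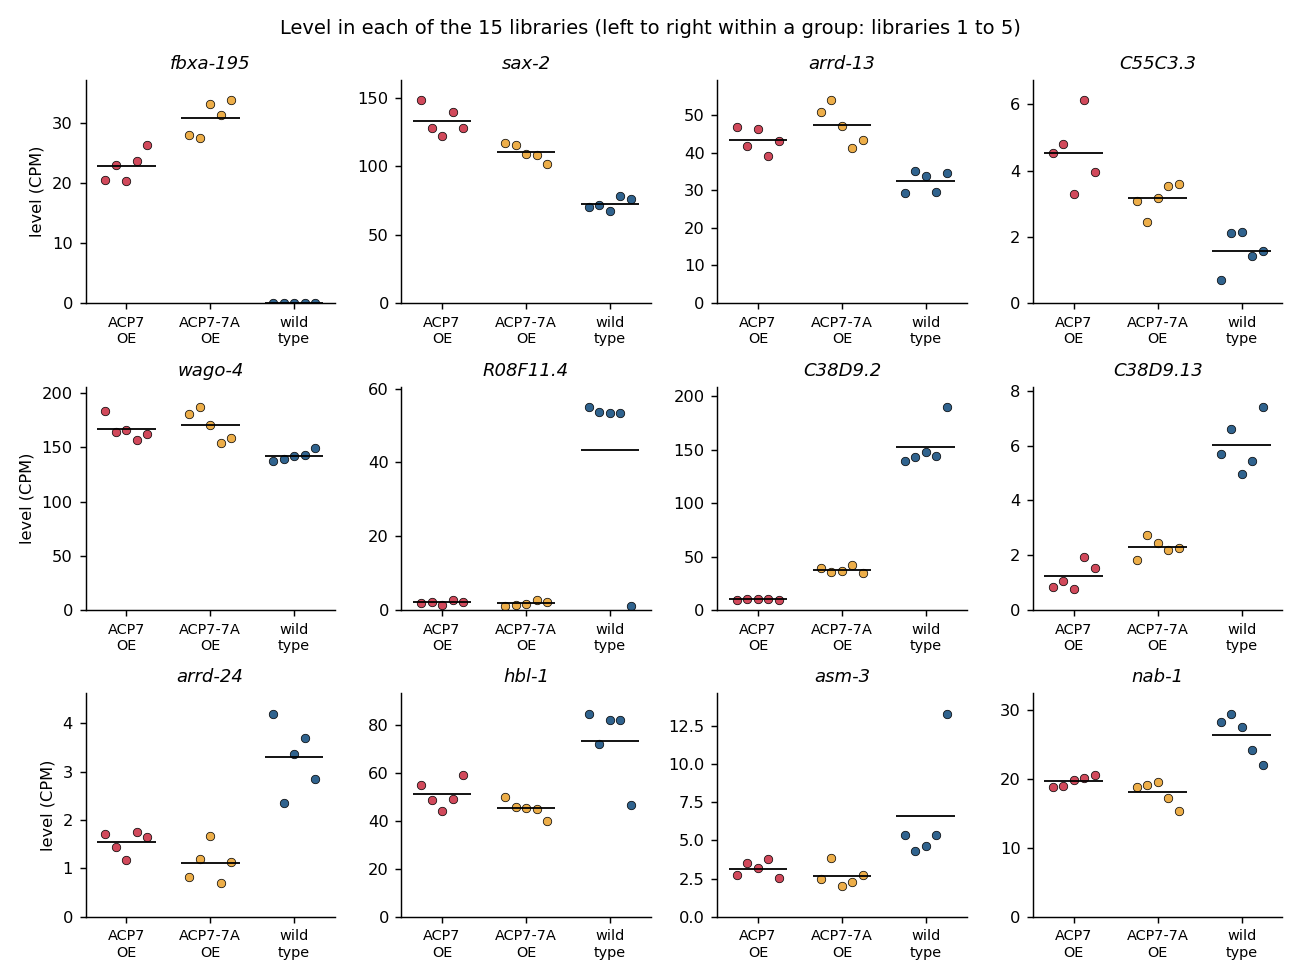
CPM (vertical axis, from 0) of 12 called genes in each library, 1 panel per gene, with ACP7 OE and ACP7-7A OE to the left of wild type; points are libraries 1 to 5 from left to right and lines are group means. In R08F11.4 and hbl-1 wild-type library 5 lies with the construct libraries, and in fbxa-195 all wild-type libraries are at 0.

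The largest fall by fold change was in R08F11.4, named after its values were seen because its groups overlap. It had 1.86, 2.18, 1.44, 2.61 and 2.098 CPM in ACP7 OE libraries and 1.01, 1.33, 1.59, 2.72 and 2.103 CPM in ACP7-7A OE, against 55.1, 53.6, 53.5, 53.3 and 1.08 CPM in wild type. Wild-type libraries 1 to 4 were more than 5 times above all others, and wild-type library 5 lay at the low end of the construct libraries. The log2 fold change was -4.52 (SE 0.54, adjusted p = 0.0030) with all libraries and -4.85 (adjusted p = 6.03e-12) without wild-type library 5. Removing that library by itself favours a larger fall. Of all genes tested, R08F11.4 was the 1 gene in which wild-type libraries 1 to 4 had at least 5 CPM and were over 5 times the highest of the other 11 libraries, and 0 genes showed the opposite pattern.

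C38D9.2 and C38D9.13, a noncoding RNA gene, lie 1469 bases apart on chromosome V, and were the only called pair within 20 kb of each other. C38D9.2 had 9.73, 9.97, 9.85, 10.6 and 9.22 CPM in ACP7 OE libraries and 39.7, 35.8, 36.4, 41.9 and 34.1 CPM in ACP7-7A OE, against 139, 143, 148, 144 and 190 CPM in wild type. The 3 groups did not overlap, and ACP7 OE was the lowest. The pooled fall was 6.45-fold (log2 fold change -2.69, SE 0.42, adjusted p = 0.022). The pooled call was lost without wild-type library 1, 3 or 4, with adjusted p-values of 0.057, 0.064 and 0.0635.

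C38D9.13 followed the same order of groups. It had 0.842, 1.07, 0.776, 1.93 and 1.55 CPM in ACP7 OE libraries and 1.83, 2.73, 2.43, 2.19 and 2.26 CPM in ACP7-7A OE, against 5.71, 6.60, 4.96, 5.44 and 7.42 CPM in wild type. Construct and wild-type libraries did not overlap, and 4 of the 5 ACP7-7A OE libraries were above every ACP7 OE library. The log2 fold change was -1.77 (SE 0.24, adjusted p = 0.00088).

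arrd-24, a further arrestin-domain gene, had 0.691, 1.33 and 1.76 CPM (lowest, median and highest) in the construct libraries, against 4.20, 2.36, 3.36, 3.70 and 2.86 CPM in wild type. The groups did not overlap, and the log2 fold change was -1.31 (SE 0.22, adjusted p = 0.010). asm-3, an acid sphingomyelinase, had 2.02, 2.72 and 3.85 CPM in the construct libraries, against 5.37, 4.29, 4.63, 5.34 and 13.3 CPM in wild type. All wild-type libraries were above the construct libraries, and wild-type library 5 was the highest. Its log2 fold change was -1.18 with all libraries (SE 0.23, adjusted p = 0.025) and -0.77 without wild-type library 5 (adjusted p = 0.023). Both calls were lost without wild-type library 1 (arrd-24 adjusted p = 0.0733, asm-3 0.057) or 4 (both 0.0635).

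Of the neuron list 0 of 32 genes passed, and unc-75, nab-1 and nlr-1 were named as single genes among the calls. unc-75, a CELF-family RNA-binding protein that sets splicing in neurons, had 3.50, 4.24 and 5.05 CPM (lowest, median and highest) in the construct libraries, against 8.04, 5.56, 8.54, 7.15 and 6.95 CPM in wild type. The groups did not overlap (log2 fold change -0.76, SE 0.13, adjusted p = 0.010). nab-1, the neurabin that anchors actin at synapses, had 15.3, 19.1 and 20.6 CPM in the construct libraries, against 28.3, 29.5, 27.6, 24.3 and 22.02 CPM in wild type (-0.48, SE 0.08, adjusted p = 0.010). nlr-1, a neurexin-like receptor, had 9.68, 11.9 and 13.1 CPM in the construct libraries, against 16.54, 14.3, 18.8, 17.97 and 13.7 CPM in wild type (-0.47, SE 0.10, adjusted p = 0.031). In nab-1 and nlr-1 wild-type library 5 was the lowest of wild type, and the groups did not overlap. The calls on unc-75 and nab-1 were lost without wild-type library 1 or 3 (unc-75 adjusted p = 0.057 and 0.065, nab-1 0.057 and 0.0528). The call on nlr-1 was lost without 3 wild-type libraries and 1 construct library (adjusted p up to 0.168).

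che-2, a WD40 protein of intraflagellar transport, averaged 0.44 CPM in the construct libraries and 1.36 CPM in wild type. It was the 1 called gene with an average under 1 CPM, and is named after its values were seen (log2 fold change -1.62, SE 0.30, adjusted p = 0.023). No wild-type library was as low as any construct library, and the call was lost without 3 of the wild-type libraries (adjusted p up to 0.104).

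C29H12.6 had 2.54, 3.55 and 4.24 CPM (lowest, median and highest) in the construct libraries, against 6.21, 6.31, 7.53, 6.27 and 4.98 CPM in wild type. The groups did not overlap (log2 fold change -0.84, SE 0.14, adjusted p = 0.010). This call was lost without wild-type library 3 (adjusted p = 0.064). R03H10.2 (-0.60, SE 0.12, adjusted p = 0.025) and T28D6.4 (-0.55, SE 0.12, adjusted p = 0.037) also fell without overlap. The calls on both were lost without each of wild-type libraries 1 to 4 in turn.

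hbl-1 and lin-14 encode transcription factors of the heterochronic pathway, which times the larval stages, and both are named after their values were seen. hbl-1 had 39.8, 47.05 and 58.9 CPM (lowest, median and highest) in the construct libraries, against 84.5, 71.9, 81.8, 81.8 and 46.6 CPM in wild type (log2 fold change -0.61, SE 0.11, adjusted p = 0.025). lin-14 had 19.3, 23.5 and 26.9 CPM in the construct libraries, against 31.3, 35.3, 31.8, 27.5 and 26.5 CPM in wild type (-0.36, SE 0.08, adjusted p = 0.046). In both genes wild-type libraries 1 to 4 were above all construct libraries and wild-type library 5 lay within their range. Without that library, whose removal by itself favours a larger fall, the log2 fold change was -0.75 for hbl-1 (adjusted p = 2.36e-05) and -0.42 for lin-14 (adjusted p = 0.0087). dve-1, a homeodomain protein of the mitochondrial unfolded protein response, fell without overlap (-0.48, SE 0.10, adjusted p = 0.044). grh-1, the Grainyhead factor of epidermal genes (-0.58, SE 0.12), and nhr-137, a nuclear hormone receptor (-0.59, SE 0.12), also fell, and were chosen after their values were seen. No list of transcription factors was tested. Without each of wild-type libraries 1 to 4 in turn, the calls on hbl-1, lin-14, dve-1, grh-1 and nhr-137 were lost.

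lrp-1, lpr-4 and ajm-1 were called members of the molting and apical matrix or hypodermis lists, whose counts over all tested members are given further on. lrp-1, a megalin-like receptor needed for molting, had 49.96, 54.7 and 60.9 CPM (lowest, median and highest) in the construct libraries, against 76.5, 70.9, 73.9, 70.2 and 55.8 CPM in wild type (log2 fold change -0.34, SE 0.07, adjusted p = 0.025). lpr-4, a lipocalin-related protein, had 4.07, 5.50 and 7.20 CPM in the construct libraries, against 9.75, 9.37, 12.4, 8.56 and 6.51 CPM in wild type (-0.72, SE 0.15, adjusted p = 0.034). ajm-1, a protein of the apical junction, had 86.4, 96.2 and 103 CPM in the construct libraries, against 121, 113.5, 126, 118 and 95.0 CPM in wild type (-0.28, SE 0.06, adjusted p = 0.036). In all 3 of these genes wild-type libraries 1 to 4 were above every construct library and wild-type library 5 was not. Without it the log2 fold change was -0.43 for lrp-1 (adjusted p = 0.00095), -0.85 for lpr-4 (adjusted p = 0.0041) and -0.35 for ajm-1 (adjusted p = 0.0011). Its removal by itself favours such larger falls.

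ddr-2, a discoidin-domain receptor of collagen, had 7.19, 8.55 and 9.28 CPM in the construct libraries, against 11.5, 10.96, 13.9, 12.31 and 10.5 CPM in wild type (log2 fold change -0.49, SE 0.10, adjusted p = 0.027). Here no construct library reached wild type. Among the calls that fell, and chosen after their values were seen, were also the planar polarity genes fmi-1, the Flamingo cadherin (-0.58), and prkl-1, the Prickle protein (-0.53), with ptc-3 of the Patched family (-0.38), the intermediate filament ifb-1 (-0.33) and the pharyngeal cuticle gene abu-14 (-0.74). Without each of wild-type libraries 1 to 4 in turn, the calls on lrp-1, lpr-4, ajm-1, fmi-1, prkl-1, ptc-3, ifb-1 and abu-14 were lost, and that on ddr-2 was lost without 3 of them.

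icl-1, the bifunctional enzyme of the glyoxylate cycle that turns fat into carbohydrate, had 158.5, 213 and 229 CPM (lowest, median and highest) in the construct libraries, against 293, 277, 292, 264 and 224 CPM in wild type (log2 fold change -0.40, SE 0.08, adjusted p = 0.031). acs-17, an acyl-CoA synthetase, had 13.9, 17.5 and 22.4 CPM in the construct libraries, against 27.2, 27.4, 27.6, 25.6 and 17.4 CPM in wild type (-0.51, SE 0.11, adjusted p = 0.047). ND5, a subunit of respiratory complex I encoded in the mitochondrial genome, had 962, 1098 and 1222 CPM in the construct libraries, against 1330, 1332, 1455, 1314 and 1185 CPM in wild type (-0.28, SE 0.06, adjusted p = 0.032). In all 3 genes wild-type library 5 lay within the range of the construct libraries and the other wild-type libraries above it. Without that library the log2 fold change was -0.48 for icl-1 (adjusted p = 0.0037), -0.63 for acs-17 (adjusted p = 0.0034) and -0.33 for ND5 (adjusted p = 0.0047). Here too its removal by itself favours a larger fall. Chosen after their values were seen, the heme transporter hrg-1 (-0.45, adjusted p = 0.017), the phytochelatin synthase pcs-1 (-0.38, adjusted p = 0.016) and the carboxylesterase cest-26 (-0.55, adjusted p = 0.046) fell too. The calls on icl-1, acs-17, ND5 and cest-26 were lost without each of wild-type libraries 1 to 4 in turn, and those on hrg-1 and pcs-1 without 3 wild-type libraries each.

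From the lists of cell and protein classes, hil-7, a linker histone-like gene, fell by 0.60 (SE 0.13, adjusted p = 0.047), math-3, a MATH-domain gene, by 0.51 (SE 0.11, adjusted p = 0.046), and clec-258, a C-type lectin, by 1.00 (log2 scale, SE 0.22, adjusted p = 0.047). clec-258 was the 1 called gene that no longer passed without wild-type library 5 (adjusted p = 0.054), and the calls on hil-7 and math-3 were lost without most wild-type libraries (adjusted p up to 0.178 and 0.185). Of the 65 genes, 12 overlap another tested gene in the genome, such as hrg-1 with mop-25.1 on the other strand. Reads of such a pair cannot be told apart where the counting did not use strand. For K10D3.4, math-3 and ND5, which overlap genes on the same strand, counting by strand would not separate the shared stretch either.

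Wild-type library 5 was the lowest wild-type library in 40 of the 51 genes that fell, against 2, 5, 3 and 1 genes for libraries 1, 2, 3 and 4. It lay within the range of the construct libraries in 32 of the 51, and in 2 of the 14 that rose. Wild-type libraries 1 to 4 were all above every construct library in 48 of the 51 genes that fell, and all below in 11 of the 14 that rose. These counts cover only called genes, and the same counts over all genes tested were not made. Calling by a difference between construct and wild-type libraries by itself favours such separation. Summed hypodermal markers were 215 to 268 CPM in the construct libraries, against 231 CPM in wild-type library 5 and 259 to 286 CPM in wild-type libraries 1 to 4. Summed germline markers were 2660 to 3240 CPM in the construct libraries, against 2860 CPM in wild-type library 5 and 2490 to 2610 CPM in wild-type libraries 1 to 4. Wild-type library 5 was also the lowest of wild type in summed intestine (2339 CPM), body wall muscle (3500 CPM) and pharynx (74.9 CPM) markers. Its intestine sum lay just below the range of the construct libraries (2361 to 4124 CPM), next to ACP7-7A OE library 1 (2361 CPM). Wild-type libraries 1 to 4 were at 3090 to 3616 CPM. The part of these markers in the gene results was not tested. In bulk RNA of whole worms, fewer cells of a type and less RNA per cell cannot be told apart.

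**Figure D4:**
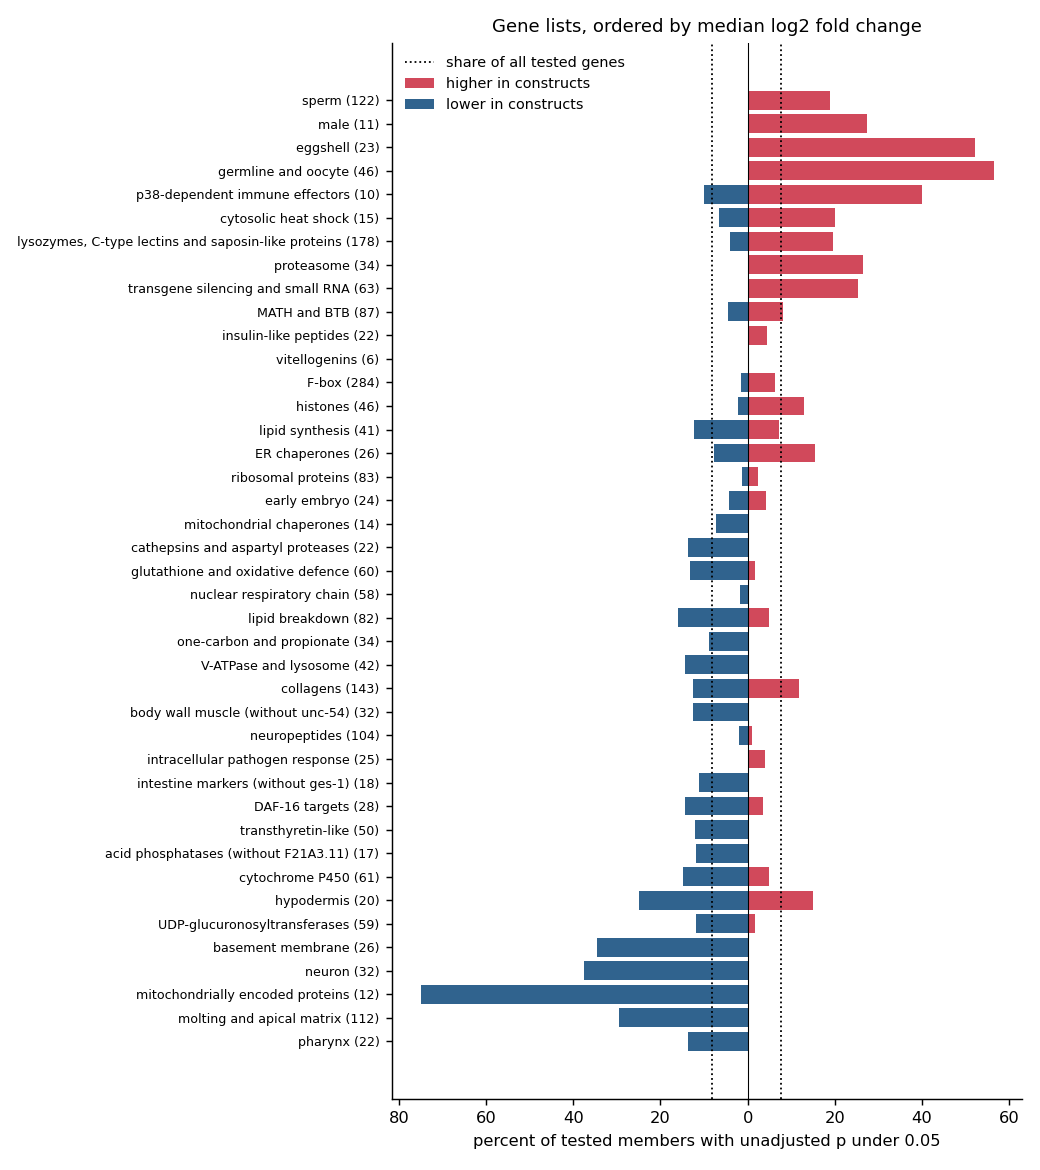
Percent of the tested members of each gene list with an unadjusted p under 0.05 (horizontal axis), higher in the construct libraries to the right of 0 and lower to the left, with lists ordered by median log2 fold change and the number of tested members in brackets. Dotted lines mark the shares of all genes tested, 7.78% higher and 8.20% lower; the germline and oocyte list reaches 56.5% higher and the mitochondrially encoded list 75% lower.

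Of 41 gene lists, 12 held at least 1 called gene and 29 held none, while the median log2 fold change of all genes tested was -0.00116. With all libraries, 0.0890% of all genes tested were called higher and 0.324% lower. A count of 1 or 2 called members is too small to describe a list. In the molting and apical matrix list, 2 tested members fell (lrp-1 and lpr-4), none rose and 110 did not pass, with a median of -0.26. At an unadjusted p under 0.05, 33 of its members (29.5%) were lower and 0 higher, against 8.20% lower over all genes. In the hypodermis list 2 of 20 fell (lpr-4 and ajm-1, median -0.17). It was mixed at an unadjusted p under 0.05, with 5 members (25%) lower and 3 (15%) higher, against 7.78% higher over all genes. In the basement membrane list 1 of 26 fell (ddr-2, median -0.19), with 9 members (34.6%) lower and 0 higher at an unadjusted p under 0.05. Relative to wild type, the basement membrane median was -0.34 in ACP7 OE libraries and -0.05 in ACP7-7A OE. The collagens, the structural proteins of cuticle, had 0 of 143 called, and 17 members higher and 18 lower at an unadjusted p under 0.05. Summed hypodermal markers ran from 222 to 268 CPM in ACP7 OE libraries and from 215 to 262 CPM in ACP7-7A OE, against 231 to 286 CPM in wild type, and their part in these counts was not tested.

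Without wild-type library 5, an alternative added after seeing the data for these lists, 15 molting and apical matrix genes (13.2% of those tested) fell, against 2.23% lower over all genes in that fit. They included the protease inhibitor gene mlt-11 (log2 fold change -0.52, SE 0.08, adjusted p = 0.0018), the apical matrix genes noah-1 (-0.34, SE 0.08) and noah-2 (-0.38, SE 0.08), lpr-3 (-0.56, SE 0.10) and ptr-25 (-0.69, SE 0.11). With all libraries, mlt-11 had a log2 fold change of -0.41 with an adjusted p of 0.0512. Of the collagens, 5 of 148 (3.38%) then fell, a share near that over all genes. They were dpy-14, dpy-17, sqt-3, col-121 and col-166, between -0.60 for dpy-14 and -0.37 for col-166. The basement membrane list had 3 of 26 lower (11.5%; lam-3, nid-1 and ddr-2) and the hypodermis list 3 of 20 (15%; sqt-3, ajm-1 and lpr-4).

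Germline and eggshell genes pointed the other way without passing. Of the germline and oocyte list, 0 of 46 members were called, 26 (56.5%) were higher at an unadjusted p under 0.05 and 0 lower, against 7.78% higher over all genes, and the median was 0.14. Of the eggshell list, 0 of 23 were called, 12 (52.2%) were higher at that level, and the median was 0.16. Without wild-type library 5, 4 of the 46 germline and oocyte genes (8.70%) rose, against 0.694% higher over all genes in that fit. Of these pgl-3, a P-granule protein, had the smallest p (0.27, SE 0.05, adjusted p = 0.0074), with puf-11, nos-2 and the Piwi gene prg-1. In the same fit 5 of the 23 eggshell genes (21.7%) rose, namely perm-1, cpg-4, egg-1, egg-2 and egg-5, between 0.21 for egg-2 and 0.25 for egg-1. Summed germline markers were 2710 to 3020 CPM in ACP7 OE libraries and 2660 to 3240 CPM in ACP7-7A OE, against 2490 to 2860 CPM in wild type, while summed oocyte markers were 3060 to 3900 CPM in ACP7 OE libraries and 3360 to 4400 CPM in ACP7-7A OE, against 2750 to 3730 CPM in wild type. Their part was not tested.

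The transgene silencing and small RNA list, which holds Argonautes and their partners, had 1 of 63 members higher (wago-4) and a median of 0.08. At an unadjusted p under 0.05, 16 (25.4%) were higher, against 7.78% over all genes. When wild-type library 5 was left out, 3 of the 63 rose (4.76%; prg-1, wago-4 and simr-1), against 0.694% over all genes in that fit. The F-box list had 2 of 284 higher (0.704%, fbxa-195 and fbxc-50, median 0.04), against 0.0890% higher over all genes. In the MATH and BTB list 1 of 87 was lower (1.15%, math-3, median 0.08). The histones list had 1 of 46 lower (2.17%, hil-7, median 0.04). Over all genes 0.324% were called lower. The proteasome list had 0 of 34 called, and 9 (26.5%) were higher at an unadjusted p under 0.05, against 7.78% over all genes (median 0.09). In the fit without wild-type library 5, 4 of 293 F-box genes rose (1.37%; fbxa-195, fbxc-50, fbxa-170 and fbxa-120), as did 1 of 34 proteasome genes (pas-6), and of 89 MATH and BTB genes bath-12 rose while bath-25 and math-3 fell. The histones then still had 1 gene lower (hil-7).

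Of the 12 mitochondrially encoded proteins, 1 fell (ND5), with a median of -0.26. At an unadjusted p under 0.05, 9 (75%) were lower, against 8.20% over all genes. Relative to wild type, the median was -0.343 in ACP7 OE libraries and -0.145 in ACP7-7A OE. Without wild-type library 5, 6 of the 12 fell (50%), against 2.23% lower over all genes in that fit. They were ND5, ND3, ND4, ND6, COX2 and COX3, between -0.46 for COX3 and -0.27 for COX2. Mitochondrial counts were 1.16% to 1.28% of all counts in ACP7 OE libraries and 1.33% to 1.52% in ACP7-7A OE, against 1.32% to 1.72% in wild type. The nuclear respiratory chain had 0 of 58 called (median -0.04) and the mitochondrial chaperones 1 of 14 lower (dve-1; median -0.00). The lipid breakdown list had 2 of 82 lower (2.44%, icl-1 and acs-17, median -0.04), against 0.324% lower over all genes. DAF-16 targets had 1 of 28 lower (3.57%, icl-1, median -0.12). The lysozyme, lectin and saposin list had 1 of 178 lower (clec-258) and a median of 0.11. At an unadjusted p under 0.05, 35 members (19.7%) were higher, against 7.78% over all genes. Its median relative to wild type was 0.18 in ACP7 OE libraries and -0.05 in ACP7-7A OE. In the fit without wild-type library 5, 3 of 82 lipid breakdown genes fell (3.66%; acox-1.1, icl-1 and acs-17), near the 2.23% over all genes. Of 185 lysozyme, lectin and saposin genes, clec-190 then rose while clec-78 and clec-1 fell (1.62% called, against 2.93% over all genes).

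Lists tied to the gut and to secretion held no called gene with all libraries. There were 0 of 18 intestine markers (median -0.11), 0 of 6 vitellogenins (0.06), 0 of 17 acid phosphatases other than F21A3.11 (-0.14), 0 of 22 cathepsins and aspartyl proteases (-0.01), 0 of 42 V-ATPase and lysosome genes (-0.07) and 0 of 26 ER chaperones (0.00). Without wild-type library 5, 2 of 23 cathepsins and aspartyl proteases fell (8.70%), namely cpr-3 (-0.49, adjusted p = 0.0086) and asp-14 (-0.37, adjusted p = 0.026). In the V-ATPase and lysosome list 2 of 42 then fell (4.76%), the galactosidase gene glb-1 (-0.30, adjusted p = 0.011) and ncr-1, a sterol transporter of the Niemann-Pick C1 family (-0.51, adjusted p = 0.021). Over all genes 2.23% were lower in that fit, and the other 4 of these lists stayed without a call. Some of these pooled medians joined constructs that lay apart. Relative to wild type, the cathepsin and aspartyl protease median was 0.18 in ACP7 OE libraries and -0.21 in ACP7-7A OE. For the intestine markers it was 0.00 in ACP7 OE libraries and -0.23 in ACP7-7A OE. Summed intestine markers were 3240 to 4120 CPM in ACP7 OE libraries and 2360 to 2990 CPM in ACP7-7A OE, against 2340 to 3620 CPM in wild type.

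Stress, immune and detoxification lists were also without a call when all libraries were used. There were 0 of 10 p38-dependent immune effectors (median 0.13), 0 of 25 intracellular pathogen response genes (-0.11), 0 of 15 cytosolic heat shock genes (0.11), 0 of 61 cytochrome P450 genes (-0.15), 0 of 59 UDP-glucuronosyltransferases (-0.19) and 0 of 60 glutathione and oxidative defence genes (-0.03). Of the p38-dependent effectors 4 (40%) were higher and 1 (10%) lower at an unadjusted p under 0.05, against 7.78% and 8.20% over all genes. Among lists of metabolism and signalling, 0 of 41 lipid synthesis genes (0.03), 0 of 34 one-carbon and propionate genes (-0.05), 0 of 22 insulin-like peptides (0.07), none of the neuropeptides (-0.10), 0 of 50 transthyretin-like genes (-0.12), 0 of 83 ribosomal proteins (0.00) and 0 of 24 early embryo genes (0.00) passed. When wild-type library 5 was left out, cyp-13A5 (-1.01) and cyp-33A1 (-0.38) fell and cyp-31A2 (0.225) rose among 61 cytochrome P450 genes (4.92%), ugt-57 (-0.735) fell among 59 UDP-glucuronosyltransferases (1.69%), and gst-10 (-0.33) and gst-42 (-0.35) fell among 62 glutathione and oxidative defence genes (3.23%). In the same fit 3 of 52 transthyretin-like genes fell (5.77%), namely ttr-18 (-0.45), ttr-2 (-0.29) and ttr-15 (-0.31). Over all genes, 2.93% passed in that fit, and the other lists of stress, immunity, metabolism and signalling named here stayed without a call. With all libraries, some pooled medians joined constructs of opposite sign relative to wild type. The intracellular pathogen response median was 0.17 in ACP7 OE libraries and -0.34 in ACP7-7A OE. Cytosolic heat shock was at 0.11 and -0.07, and early embryo at -0.25 and 0.16, in the same order.

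Among cell type lists, 0 of 32 neuron genes passed (median -0.20). At an unadjusted p under 0.05, 12 of them (37.5%) were lower, against 8.20% over all genes. There were 0 of 22 pharynx genes (-0.27), 0 of 32 body wall muscle genes without unc-54 (-0.10), 0 of 11 male genes (0.41) and 0 of 122 sperm genes (0.58). At the unadjusted level 3 male genes (27.3%) and 23 sperm genes (18.9%) were higher and 0 lower, against 7.78% higher over all genes. In the fit without wild-type library 5, 1 of 32 neuron genes fell (3.12%; tbb-4, a beta-tubulin, at -0.625), as did 2 of 23 pharynx genes (8.70%; the pharyngeal organ factor pha-4 at -0.44 and ceh-34 at -0.66) and 2 of 32 body wall muscle genes (6.25%; the troponin gene tni-1 at -0.51 and unc-97 at -0.29), against 2.23% lower over all genes in that fit. The male and sperm lists then had no call. The sperm median was 0.89 in ACP7 OE libraries and 0.21 in ACP7-7A OE, both relative to wild type. Summed sperm markers were 356 to 550 CPM in ACP7 OE libraries and 84.4 to 393 CPM in ACP7-7A OE, against 168 to 260 CPM in wild type, and the lowest ACP7-7A OE values were those of libraries 1 and 2. Summed male markers were at least 8.23 CPM in ACP7 OE libraries and ran from 1.84 to 2.68 CPM in ACP7-7A OE, against 1.38 to 3.77 CPM in wild type.

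The genes that fell included 15 on the X chromosome, which holds 14.2% of the genes tested and 29.4% of the 51, and none of the 14 that rose is on it. X-linked genes are as a rule kept low in the worm germline. The median log2 fold change was -0.13 on X, against -0.03 to 0.03 on the autosomes and -0.23 on the mitochondrial genome. Relative to wild type, the X median was -0.15 in ACP7 OE libraries and -0.12 in ACP7-7A OE, and both comparisons share the wild-type libraries. Without wild-type library 5, 107 of the 357 genes that fell and 5 of the 111 that rose (4.50%) were on X, with an X median of -0.19.

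Between the constructs, 5 of the 65 genes differed in the test of that difference, a share near that over all genes tested (1344, or 8.55%). The pooled test counts a difference between the constructs as spread, so genes with such a difference were less likely to be called. The count of 5 is thus no measure of how alike the constructs were. sax-2 was higher in ACP7 OE libraries than in those of ACP7-7A OE (0.27, adjusted p = 0.0059), as was txt-4 (0.38, adjusted p = 0.023), chosen after its values were seen, which fell in the pooled comparison by 0.68 (SE 0.11, adjusted p = 0.0095). fbxa-195 (-0.43), C38D9.13 (-0.90, adjusted p = 0.016) and C38D9.2 (-1.93, adjusted p = 7.5e-14) were lower in ACP7 OE. Relative to wild type, C38D9.2 had a log2 fold change of -3.95 in ACP7 OE libraries and -2.03 in ACP7-7A OE, and sax-2 one of 0.88 in ACP7 OE libraries and 0.60 in ACP7-7A OE. The 2 comparisons share the wild-type libraries.

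**Figure D5:**
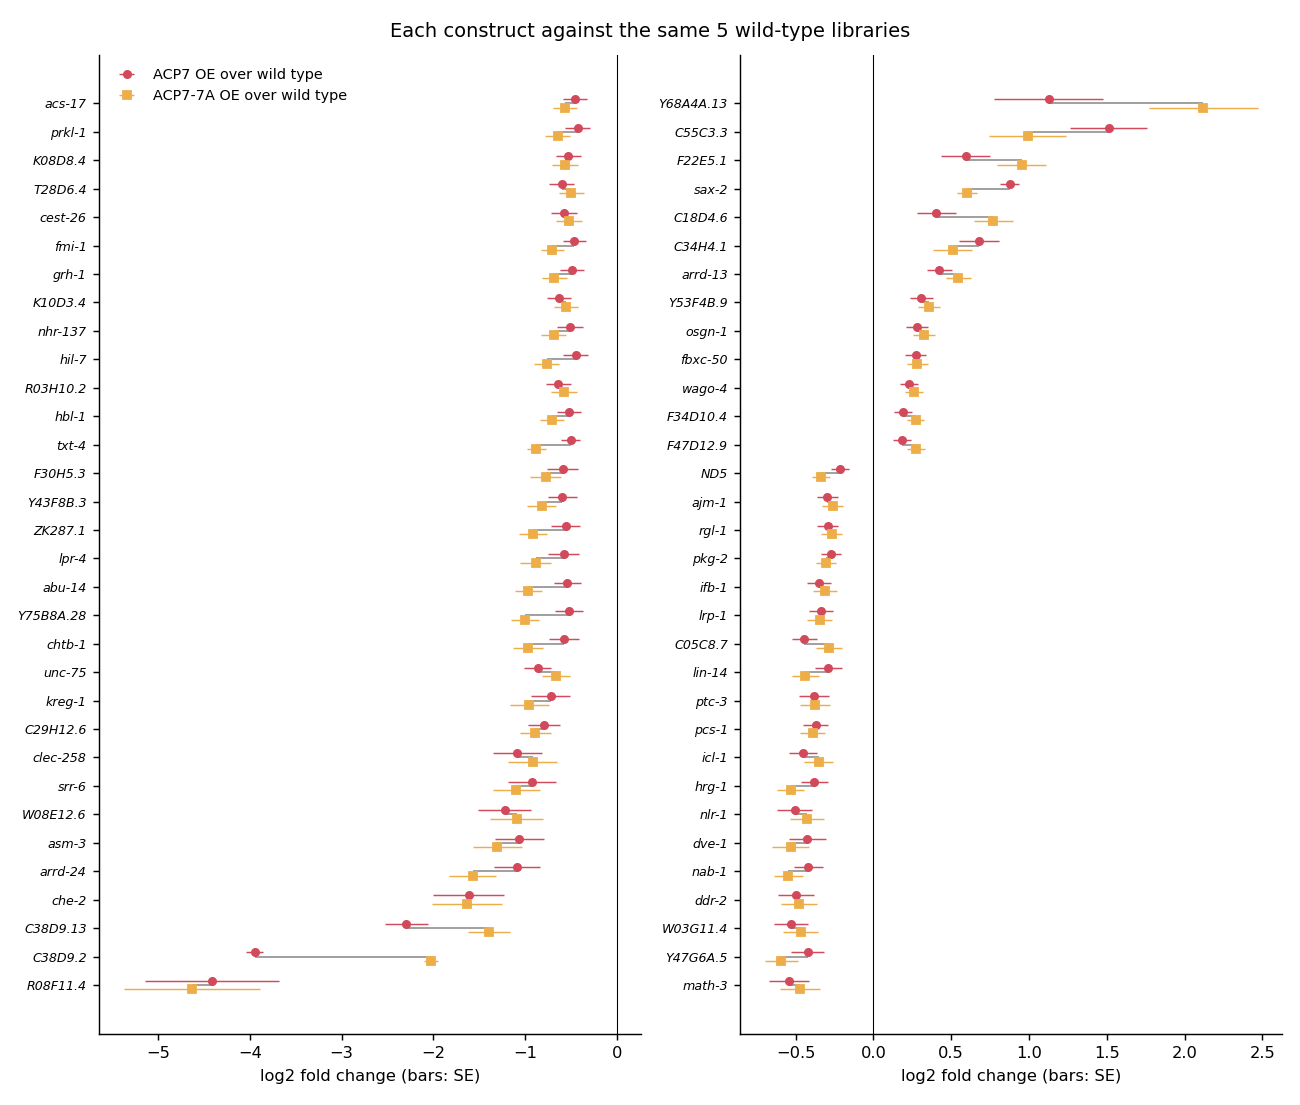
Log2 fold change over the same 5 wild-type libraries (horizontal axis; bars are SE) of the called genes other than fbxa-195, for ACP7 OE (circles) and ACP7-7A OE (squares), with a grey line joining both values of a gene. C38D9.2 has the widest gap, at -3.95 for ACP7 OE and -2.03 for ACP7-7A OE.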

How the data were processed

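Per the file headers, the authors deposited 1 table of gene counts for 15 libraries, made with featureCounts 2.0.6. Per the submitters' processing notes, Trim Galore, STAR and WBcel235 were used. How strand, multi-mapping reads and mates were handled is not given in the sources used here. Values are whole, unnormalized counts, as deposited. Between 81.3% and 86.1% of values from 5 to 39 were even, so mates appear to have been counted separately. Symbols came from RefSeq, which matched 46925 of 46929 genes. 0 columns were left unused.

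Here, 10 construct libraries were tested against 5 of wild type with edgeR 4.0.16 in R 4.3.3 (filterByExpr, TMM, robust quasi-likelihood F test, Benjamini-Hochberg over all genes). Filtering kept 15725 genes, or 15723 without F21A3.11 and WormScarlet. The constructs were compared in a fit of 3 group means. SE is implied by the F statistic. DESeq2 1.42.0 was an alternative.

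Members, the 41 lists and tests were chosen with earlier results of these data known. Named genes are ges-1, unc-54, up to 12 highest and 12 lowest called genes of average log2 CPM of at least 1 without overlap, and up to 3 called members per list. Others are marked as chosen after their values were seen. Alternatives were other scalings, filters, halved counts, left-out libraries, a replicate block and a 3-group contrast. The procedure was tested on simulated data.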

Additional observations from a re-analysis of the deposited data

Results flagged for a closer look

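A library stood far from the others of its group in 15 of 201 groups examined, where chance alone marks about 1 in 20 groups, and 9 of the 15 were wild-type library 5. In wild-type library 5, R08F11.4 was at 1.08 CPM (the other wild-type libraries 53.3 to 55.1), nhr-137 at 9.74, K10D3.4 at 21.1, acs-17 at 17.4, ptc-3 at 31.8 and pkg-2 at 86, each the lowest of wild type. C38D9.2 at 190 CPM, asm-3 at 13.3 and osgn-1 at 60.5 were each the highest of wild type there. The remaining 6 were ddr-2 at 7.19 CPM in ACP7 OE library 2 (lowest), cest-26 at 8.49 CPM in ACP7 OE library 5 (highest), unc-54 at 1450 CPM in ACP7 OE library 1 (highest), lin-14 at 19.3 CPM in ACP7-7A OE library 1 (lowest), ZK287.1 at 3.38 CPM in ACP7-7A OE library 5 (lowest) and fbxc-50 at 42.3 CPM in ACP7-7A OE library 2 (highest).

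Some genes differed between the constructs in the test of that difference. The log2 fold change of ACP7 OE over ACP7-7A OE was -1.93 for C38D9.2, -0.90 for C38D9.13, 0.38 for txt-4, 0.27 for sax-2, -0.43 for fbxa-195, 0.35 for ges-1 and -0.88 for unc-54. The adjusted p in edgeR was 0.0042 for ges-1 and 0.018 for unc-54.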

How the results depend on the processing

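No called gene reversed in any of the 25 alternatives that gave it a value, and fbxa-195, sax-2, arrd-13 and C38D9.13 kept their call in all of them. The DESeq2 Wald test called 347 genes (154 higher, 193 lower). The 3-group contrast called 318 (102 higher, 216 lower). Leaving out wild-type library 5 together with ACP7-7A OE libraries 1 and 2 gave 1003 (510 higher, 493 lower). Library totals gave 23 higher genes, and at least 50 counts in 5 libraries gave 29. Leaving out 1 library each gave 7 to 468 genes, 3 to 111 higher and 4 to 357 lower. With other scalings and filters or halved counts the total ran from 53 to 95, with all 65 genes kept with halved counts. Between the constructs, 1344 genes became 2191 without those 3 libraries and 725 to 1801 without 1 library each. The cause of these shifts was not tested. Deviations of same-numbered libraries from their group means had correlations from -0.37 to 0.203 across groups (15 pairs, 3 of them over 0.1). Pairs with different numbers ran from -0.313 to 0.412, the highest being wild-type library 5 with ACP7-7A OE library 1. The labels do not say whether same-numbered libraries were handled together, and such correlations cannot exclude it. With the replicate block, 4 genes passed, 3 higher and 1 lower, R08F11.4 had an adjusted p of 0.0914, and 1033 genes differed between the constructs. Depth limits genes near 1 CPM, such as che-2. On the counts as deposited, the bound for fbxa-195 would be 1907-fold.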
